A study of Mus musculus with 24 samples.

Results

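The miR-30 family was followed across 24 mouse lung arrays through its 5 guide strands, mmu-miR-30a, mmu-miR-30b, mmu-miR-30c, mmu-miR-30d and mmu-miR-30e. They were picked by name from the 611 mouse miRNAs of the array, and their star strands were kept apart. RNA came from wild type mice and from mice with the SP-C/c-raf transgene, which puts an active c-Raf kinase under the promoter of surfactant protein C and so into lung epithelial cells. Animals were 4 to 6 months old and each contributed 1 array, which gave 6 arrays in each of 4 groups: M WT and F WT for wild type males and females, M c-Raf and F c-Raf for transgenic males and females. Cells were cut by laser from stained frozen lung sections before the RNA was extracted. The labels describe all 24 samples as lung adenocarcinoma, wild type lungs included, and do not say which cells were cut.

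miRNAs are short RNAs that pair with messenger RNAs mainly through their seed, bases 2 to 8 from the 5′ end, and lower the output of the paired messenger. Members of the miR-30 family share this seed and can therefore address the same messengers. The family is abundant in lung and in other epithelia, and it is known for restraining Snai1, a factor that turns off epithelial genes, as well as for roles in autophagy and in cell survival. miR-30a and one of the hairpins of miR-30c lie near each other on chromosome 1, and miR-30e and the other miR-30c hairpin lie close together on chromosome 4.

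Mature sequences of 3 of the 5 members were found in RefSeq (build GRCm38.p6), and they are printed with the seed in capitals because the members share it. miR-384-5p, which carries another family name and is the only other miRNA of that table with the same seed, is added for comparison.
miR-30a-5p (chr1:23272274-23272295, plus strand): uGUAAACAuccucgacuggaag
miR-30c-5p (chr1:23291714-23291736, plus strand, and chr4:120769584-120769606, minus strand): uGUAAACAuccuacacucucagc
miR-30e-5p (chr4:120772660-120772681, minus strand): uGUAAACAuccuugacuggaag
miR-384-5p (chrX:105344332-105344354, minus strand): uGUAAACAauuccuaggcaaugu
miR-30a-5p and miR-30e-5p were both 22 bases long and differed by 1 substitution, C13U, counted from 1 at the 5′ end with the base of miR-30a first. miR-30c-5p shared its first 12 bases with each of them and then went its own way, and its sequence was identical from both hairpins. An array signal for miR-30c therefore belongs to Mir30c-1 and Mir30c-2 together, and probes for miR-30a and miR-30e address RNAs that are alike but for a single base. Mir30a and Mir30c-2 are 19361 bases apart, and Mir30e and Mir30c-1 are 2983 bases apart within the Nfyc gene, which encodes a subunit of the transcription factor NF-Y. The hairpin of miR-30a shows both arms, with the mature 5p strand in capitals and the strand called miR-30a* near its 3′ end.
Mir30a hairpin (chr1:23272269-23272339, plus strand): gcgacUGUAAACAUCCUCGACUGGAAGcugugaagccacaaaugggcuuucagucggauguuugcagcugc

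Values are given as the log2 scaled intensity: the background-subtracted intensity of the 20 spots of a miRNA was divided by the brightness of the array, defined as the 75th percentile of the spots that belong to 27 miRNAs which no array missed, and the median over spots was taken. Brightness ran from 34.9 to 1212 arbitrary units and the number of mouse miRNAs detected from 38 to 179 per array, so that faint members were measured unevenly between arrays. A value of -6.64 is the floor, which stood for 0.35 to 12.1 units depending on the brightness of the array. Different probes bind with different strength, and the levels of different members are therefore not ranked against each other. Each replicate number corresponded to 1 slide that held an array of every group, the slides were scanned on 4 days, and each group always lay at the same position of the slide, so that position and group cannot be told apart.

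miR-30a and miR-30d were detected on all 24 arrays and miR-30c on 20. miR-30b was detected on 7 arrays, which were 3 of M c-Raf, 2 of F WT, 2 of F c-Raf and 0 of M WT. miR-30e was detected on 3 arrays, 2 of M c-Raf and 1 of F WT. Detected mouse miRNAs per array ran from 51 to 93 in M WT and from 38 to 179 in M c-Raf. They ran from 62 to 150 in F WT and from 54 to 139 in F c-Raf. The M c-Raf arrays that detected miR-30b had a brightness of 337, 792 and 1212 units, against 52.8 to 231 in M WT. All detection counts by group stand beside this uneven detection. Detection on at least 6 arrays was required for testing, so that 4 members were among the 120 miRNAs tested with limma and miR-30e was not. miR-30e entered only the comparison of pairs of members.

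**Figure D1:**
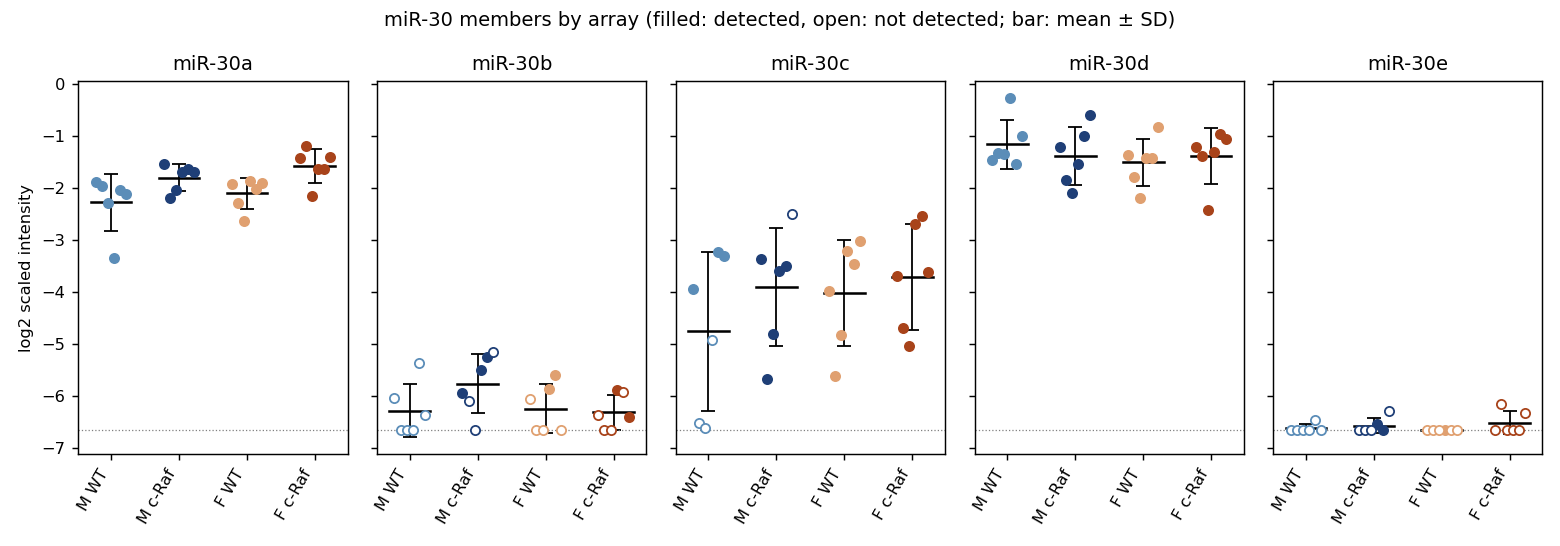
Log2 scaled intensity (y axis) of each miR-30 member on the 24 arrays, by group (x axis). Filled points mark arrays on which the miRNA was detected, open points those on which it was not, horizontal bars and whiskers the group mean ± SD over 6 arrays, and the dotted line the floor. Levels should be compared within a panel only. miR-30a lies higher in both c-Raf groups than in the WT groups of the same sex, with overlap, whereas the points of miR-30e sit at or near the floor.

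miR-30a was the only tested member whose rise in c-Raf lungs passed the test when the sexes were pooled. In M WT its log2 scaled intensity had a lowest value of -3.34, a median of -2.08 and a highest value of -1.87, with a mean of -2.27 ± 0.55 (SD, n = 6). In M c-Raf the lowest value was -2.19, the median -1.69 and the highest -1.54, with a mean of -1.80 ± 0.26 (SD, n = 6). The male groups overlapped, but 4 of 6 M c-Raf arrays were above every M WT array.

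In F WT miR-30a ranged from -2.63 to -1.85 around a median of -1.97, with a mean of -2.10 ± 0.30 (SD, n = 6). In F c-Raf it ranged from -2.15 to -1.19 around a median of -1.52, with a mean of -1.57 ± 0.33 (SD, n = 6). Here 5 of 6 F c-Raf arrays were above every F WT array and 1, replicate 3, lay within the range of the wild type.

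Over both sexes the difference of miR-30a was 0.50 on the log2 scale (SE 0.16, 95% interval 0.18 to 0.82), or 1.42-fold, with an adjusted p of 0.0288 by limma. Of all 120 tested miRNAs, 22 were called in this comparison, a background of 18.3%, and the median difference over all of them was 0.089. Among the 4 tested members 1 was called and the median difference was 0.36. Since 1 of 4 stands beside a background of 18.3%, the count itself says nothing particular about the family. On each of the 6 slides the mean of the c-Raf arrays was above that of the WT arrays for miR-30a, and within the 4 scan days the difference was 0.94, 0.43, 0.42 and 0.40. The 0.94 came from the day with slide 4 alone, which held M WT replicate 4, the array with the lowest miR-30a value.

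Within a sex the change of miR-30a did not pass the test. The difference was 0.47 in males (SE 0.22, adjusted p = 0.203 by limma), where 2.5% of all tested miRNAs were called, and 0.53 in females (SE 0.22, adjusted p = 0.223 by limma), where 5% were called. Under normexp the male difference had a negative sign, -0.12, beside a median of -0.79 over all tested miRNAs. M c-Raf was above M WT on 5 of 6 slides and F c-Raf above F WT on 6 of 6. The male effect minus the female effect was -0.059 with a 95% interval from -0.70 to 0.58, and none of the 120 tested miRNAs (0%) was called for such a difference by limma, with 5 under an unadjusted p of 0.05. Without F WT replicate 5 the count was 2, without F c-Raf replicate 1 it was 1 and with array weights 3, and no miR-30 member was among them.

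The single lowest miR-30a value, -3.34, belonged to M WT replicate 4, an array with a brightness of 52.8 units. There 6 of the 20 spots of miR-30a were well above background, and the value lay under -2.56, the array's lowest signal well above background. Without this array the difference fell to 0.26 in males (adjusted p = 0.407) and to 0.39 over both sexes (adjusted p = 0.0280 by limma). Over both sexes the call was lost without M c-Raf replicate 1 (adjusted p = 0.0504), F c-Raf replicate 2 (0.0562) or F WT replicate 3 (0.0556), and also when the arrays were scaled by the percentile of all spots or when normexp background correction was used. Of all tested miRNAs, 17, 14 and 15 were called without these arrays, 3 with that percentile and 0 with normexp, beside 22 in the main fit.

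**Figure D2:**
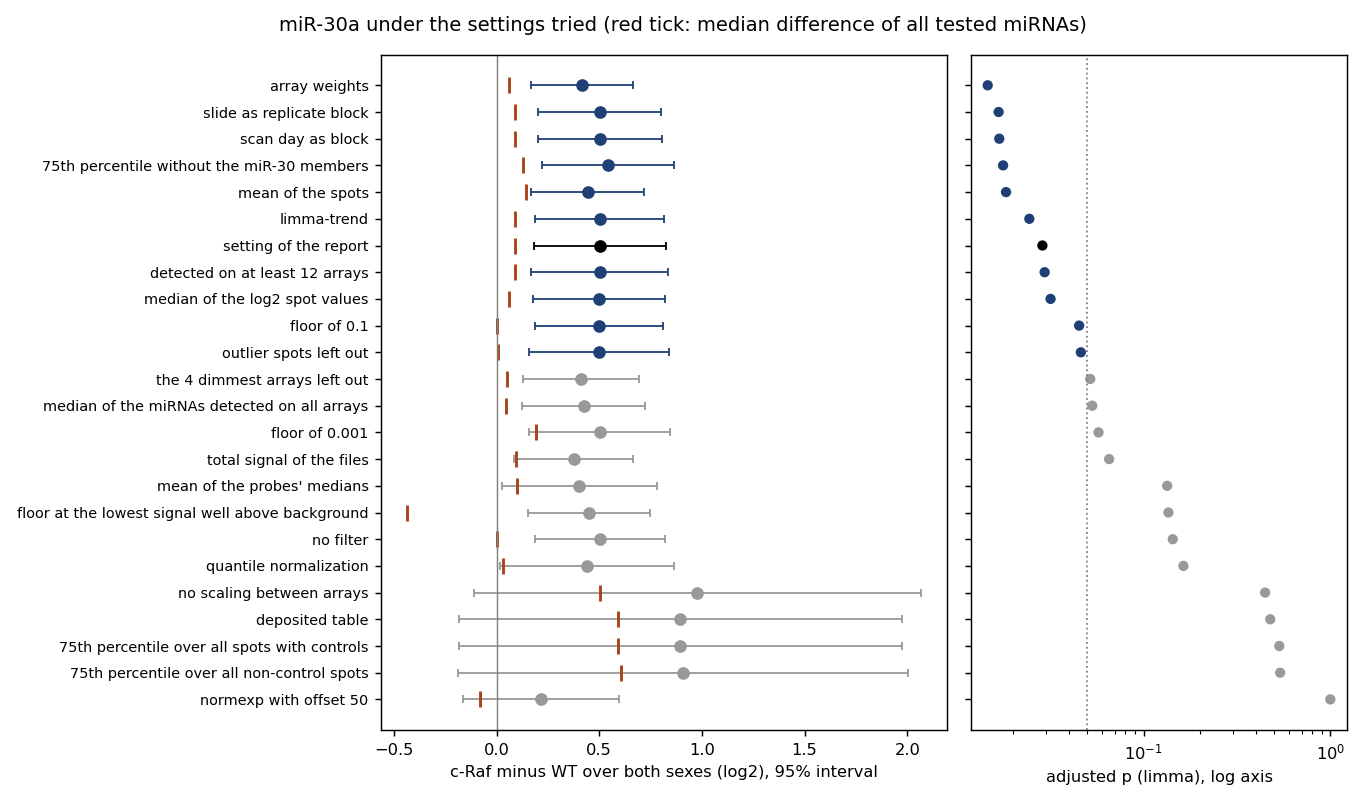
miR-30a, c-Raf against WT over both sexes, under each setting tried apart from leaving out single arrays. The left panel gives the difference (log2, x axis) with its 95% interval and, as a red tick, the median difference of all tested miRNAs. The right panel gives the limma adjusted p on a log axis with a dotted line at 0.05. Black marks the setting of the text, blue settings in which miR-30a was called and grey those in which it was not. The difference is above 0 in all settings and is called in 10 of the 23 alternatives.

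miR-30a was read by 3 probes. The brightest of them (all of its spots well above background) gave c-Raf minus WT differences of 0.41 in males and 0.46 in females, and the next (94.0% of spots well above background) gave 0.50 and 0.53. The dimmest, with 38.7% of spots well above background, gave -0.022 in males and 0.55 in females. The probes thus ran the same way in females, whereas in males the dimmest did not move with the others.

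Other small RNAs that mark cell types moved in the same comparison. Among the markers of airway and alveolar epithelium 7 of 10 were tested and 3 were called, beside a background of 18.3%. All 3 were higher in c-Raf: miR-200a (0.73), miR-200b (0.75) and miR-429 (0.73). The differences of the 7 ran from -0.024 to 0.75 with a median of 0.23. miR-200b was detected on all 24 arrays. miR-200a was detected on 0 M WT, 4 M c-Raf, 2 F WT and 5 F c-Raf arrays, and miR-429 on 1, 4, 3 and 5. The differences of miR-200a and miR-429 thus rest in part on values without detection. Detection of all mouse miRNAs was uneven between the groups too, as given above. The summed log2 level of the 10 markers ranged from -0.37 to 0.64 in M WT, from -0.36 to 1.11 in M c-Raf, from -0.0033 to 0.90 in F WT and from 0.40 to 1.07 in F c-Raf, and only miR-449b was detected on no array. The endothelial miR-126-3p was higher by 0.75, and the summed level of its list of 2, of which miR-126-5p was detected on no array, ranged from -3.76 to -1.63 in M WT and from -2.34 to -1.12 in M c-Raf, from -2.16 to -1.64 in F WT and from -1.81 to -0.95 in F c-Raf.

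Of the 5 markers of smooth muscle and fibroblasts 2 were tested: miR-214 was lower by a log2 difference of -0.86, whereas miR-199a-3p had a difference of 0.21 that did not pass (adjusted p = 0.293 by limma), and the summed level was -1.76 to -1.04 in M WT, -2.05 to -1.81 in M c-Raf, -2.02 to -1.43 in F WT and -2.03 to -1.78 in F c-Raf. Of the 3 erythroid markers, miR-486 was lower by a log2 difference of -1.10, miR-451 had a difference of 0.38 that did not pass (adjusted p = 0.389 by limma), miR-144 was detected on no array, and the summed level was -3.19 to -0.94 in M WT, -3.29 to -2.44 in M c-Raf, -3.04 to -1.98 in F WT and -3.29 to -2.34 in F c-Raf. None of the 6 tested markers of leukocytes, striated muscle or tissues other than lung was called over both sexes by limma, with 2 under an unadjusted p of 0.05, and miR-142-3p, miR-142-5p, miR-1, miR-206 and miR-124 were detected on no array. The part of these shifts in the miR-30a result was not tested, and in such tissue samples more cells of a type and more RNA per cell cannot be told apart.

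**Figure D3:**
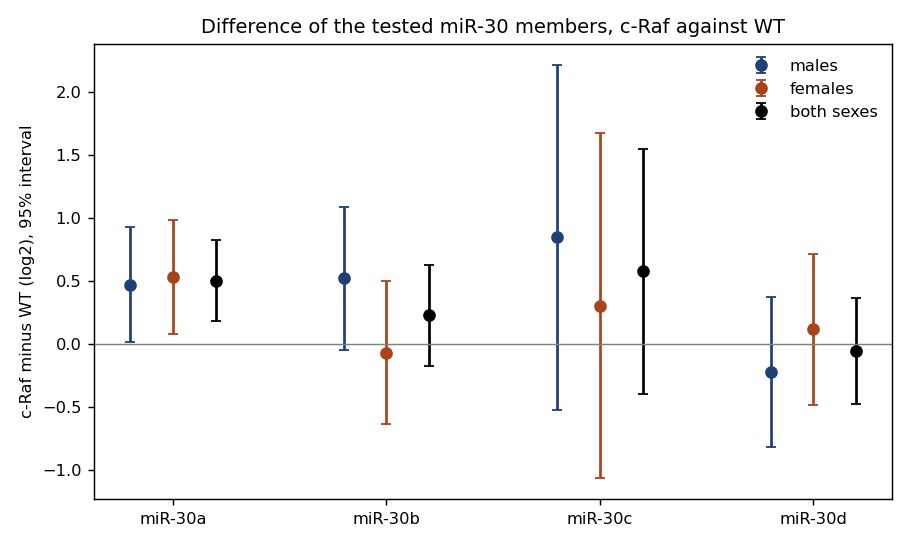
Difference between c-Raf and WT (log2, y axis) with its 95% interval for the 4 tested miR-30 members, by sex and for the sexes pooled. The interval of miR-30a over both sexes runs from 0.18 to 0.82, whereas that of miR-30d runs from -0.48 to 0.37 and that of miR-30c is the widest of the 4.

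miR-30d, the other member that was detected on every array, showed no change that passed the test. In M WT it ranged from -1.53 to -0.27 with a median of -1.34 (mean -1.15 ± 0.47, SD, n = 6), and in M c-Raf from -2.09 to -0.59 with a median of -1.37 (mean -1.38 ± 0.56, SD, n = 6). In F WT it ranged from -2.19 to -0.83 with a median of -1.42 (mean -1.50 ± 0.45, SD, n = 6), and in F c-Raf from -2.42 to -0.95 with a median of -1.25 (mean -1.38 ± 0.53, SD, n = 6). The groups overlapped widely in both sexes.

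The difference of miR-30d was -0.22 in males (SE 0.29, adjusted p = 0.631 by limma), 0.12 in females (SE 0.29, adjusted p = 0.905) and -0.054 over both sexes (95% interval -0.48 to 0.37, adjusted p = 0.899). Its 2 probes gave like values, -0.25 and -0.19 in males and 0.20 and 0.13 in females. M WT replicate 4, the array with the lowest miR-30a value, carried the highest miR-30d value of all arrays, and without it the difference was -0.046 in males and 0.035 over both sexes.

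miR-30c was the most variable member. In M WT it ranged from -6.60, next to the floor, to -3.23 with a median of -4.43 (mean -4.75 ± 1.53, SD, n = 6), and it was detected on 3 of the 6 arrays. In M c-Raf it ranged from -5.66 to -2.49 with a median of -3.55 (mean -3.90 ± 1.13, SD, n = 6) and was detected on 5 arrays, the array with the highest value being the one without detection. The male groups overlapped, with 2 M WT arrays below every M c-Raf array.

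In F WT miR-30c ranged from -5.61 to -3.02 with a median of -3.72 (mean -4.01 ± 1.01, SD, n = 6), and in F c-Raf from -5.03 to -2.53 with a median of -3.65 (mean -3.71 ± 1.01, SD, n = 6). It was detected on all 12 female arrays, and the female groups overlapped. The c-Raf minus WT difference was 0.85 in males (SE 0.66, adjusted p = 0.372 by limma), 0.31 in females (SE 0.66, adjusted p = 0.902) and 0.58 over both sexes (95% interval -0.39 to 1.55, adjusted p = 0.440). With the scan day as a block the same 0.58 over both sexes had an adjusted p of 0.0485 by limma, and with the slide as a block 0.0545. On each of the 6 slides the mean of the c-Raf arrays was above that of the WT arrays for miR-30c too. Slides 2, 3, 4 and 6 each held a male array without detection. On M WT replicates 2, 3 and 4 the values -6.51, -6.60 and -4.91 lay under these arrays' lowest signals well above background, -2.70, -3.44 and -2.56. With the floor set there on each array, the difference over both sexes was -0.088, beside a median of -0.44 for all tested miRNAs. The 0.58 is thus no measured fold. Its probes gave differences of 0.39 and 0.98 in males and of 0.41 and 0.61 in females, all higher in c-Raf. They had 22.1% and 67.5% of spots well above background.

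The level of miR-30c went with the slide. On slides 2 and 3, scanned on the same day, it ranged from -6.60 to -4.69 with a median of -5.32, and on the other slides from -4.91 to -2.49 with a median of -3.41. This split of the slides was chosen after the values of miR-30c had been seen, so it is given as a description, with no test.

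miR-30d ranged from -2.42 to -1.32 with a median of -1.81 on slides 2 and 3 and from -1.54 to -0.27 with a median of -1.21 on the other slides. miR-30a overlapped more, with medians of -2.17 and -1.77. miR-30b was detected on none of the 8 arrays of slides 2 and 3, and 7 of them were at the floor. Every slide held an array of each group. Why the slides differed was not tested.

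**Figure D4:**
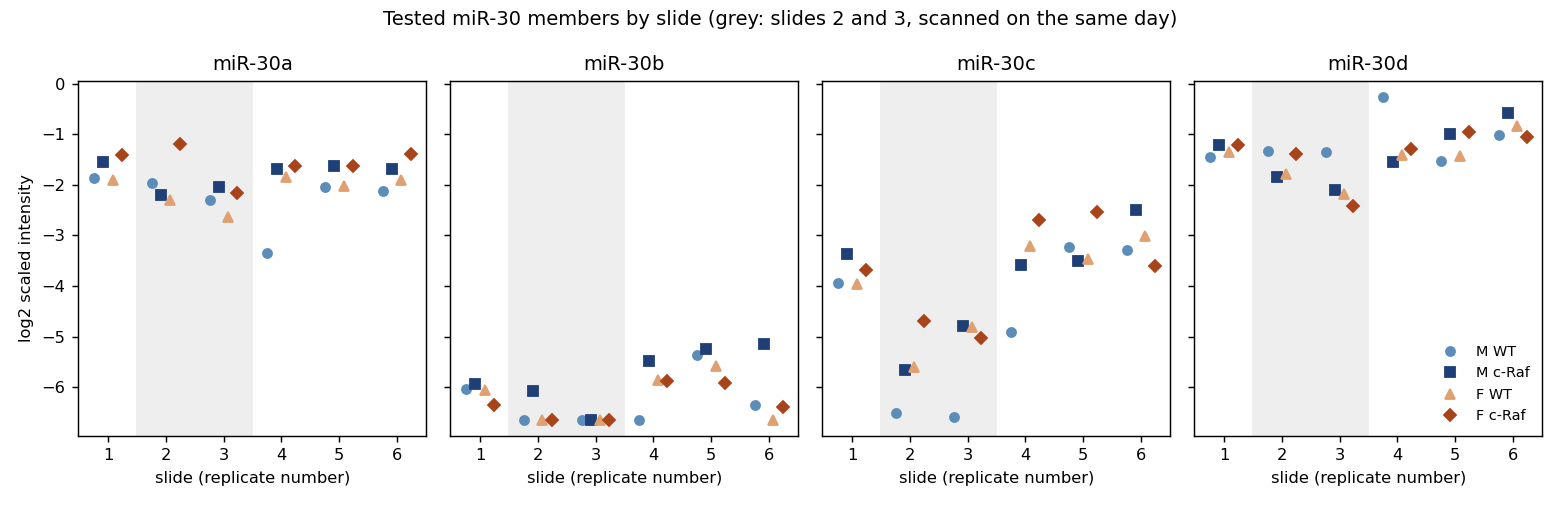
Log2 scaled intensity (y axis) of the 4 tested miR-30 members on each slide (x axis), 1 point per group and slide. The grey band marks slides 2 and 3, where miR-30c sits between -6.60 and -4.69, against -4.91 to -2.49 on the other slides.

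miR-30b was faint. In M WT it was detected on no array and its values ran from the floor to -5.37 with a median of -6.50, and in M c-Raf they ran from the floor to -5.15 with a median of -5.71. The -5.15 came from M c-Raf replicate 6, the dimmest array (34.9 units), which did not detect miR-30b. In F WT the values ran from the floor to -5.58 with a median of -6.35, and in F c-Raf from the floor to -5.89 with a median of -6.38. Values at the floor have no order, and the groups overlapped in both sexes.

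The fitted difference of miR-30b was 0.52 in males (SE 0.27, adjusted p = 0.238 by limma), -0.071 in females (SE 0.27, adjusted p = 0.940) and 0.23 over both sexes (SE 0.19, adjusted p = 0.461). The mean of M c-Raf, -5.76, lay under -3.32, the mean level that M WT arrays needed for a signal well above background, so that the male difference is a fitted value against signals not well above background and not a measured fold. One of its probes gave a male difference of 1.05 and the other of 0.14.

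miR-30e stayed at the floor on most arrays. Its highest values were -6.46 in M WT, -6.28 in M c-Raf, -6.64 in F WT and -6.14 in F c-Raf, and its median was at the floor in each group. Its spots were well above background in 0% to 10.8% of cases depending on the group. No limma difference was fitted for it.

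Differences between 2 members on the same array were used to ask whether members changed unequally. They do not depend on how arrays are scaled as long as both members lie above the floor, which holds for miR-30a and miR-30d. With miR-30b or miR-30e, which were at or near the floor on most arrays, a pair mostly repeats the level of the other member. Over the 10 pairs in each sex, 20 exact two-sided permutation tests were run, and no difference between c-Raf and WT passed after Benjamini-Hochberg adjustment. The pair of miR-30a and miR-30d, both present everywhere, differed by 0.42 more in F c-Raf than in F WT (exact permutation p = 0.0390, adjusted p = 0.274) with the sign found on 5 of 6 slides, and by 0.70 more in M c-Raf than in M WT (exact permutation p = 0.102, adjusted p = 0.339), also on 5 of 6 slides. Without F c-Raf replicate 5 the female difference of this pair was 0.52 (exact permutation p = 0.0022, adjusted p = 0.0433). That array held the lowest value of the pair in F c-Raf, -0.69, and in 23 of the 24 settings that left out 1 array no pair passed. Without adjustment 3 female pairs and 0 male pairs were under 0.05, and these were miR-30a with miR-30b, with miR-30d and with miR-30e, which share the values of miR-30a. Of the 3, only the pair with miR-30d has a partner that was detected on all arrays.

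No member was called between males and females. In wild type lungs, where 0% of tested miRNAs were called by limma and 11 were under an unadjusted p of 0.05, M WT minus F WT was -0.17 for miR-30a, -0.044 for miR-30b, -0.73 for miR-30c and 0.35 for miR-30d, with adjusted p values from 0.608 to 0.927. In transgenic lungs, where 2.5% were called, M c-Raf minus F c-Raf was -0.23, 0.55, -0.19 and 0.0062 in the same order, with adjusted p values from 0.617 to 1. The intervals of miR-30c, -2.11 to 0.64 in wild type and -1.56 to 1.18 in transgenic lungs, do not exclude a sizeable difference. For the c-Raf effect, males minus females gave 0.59 for miR-30b, 0.54 for miR-30c and -0.34 for miR-30d, each with an adjusted p of 0.872.

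The star strands of the same hairpins, which are cut from the opposite arm and carry other seeds, were measured by probes of their own. miR-30a* was detected on 14 arrays, miR-30b* on 13, miR-30c-2* on 17, and miR-30c-1* and miR-30e* on none.
miR-30a* (chr1:23272315-23272336, plus strand, seed in capitals): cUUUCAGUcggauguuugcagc
miR-30c-2* (chr1:23291754-23291775, plus strand, seed in capitals): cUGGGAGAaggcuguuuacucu
No star strand was called. miR-30a* was detected on all 6 F c-Raf arrays but on 2 F WT arrays, on 4 M c-Raf and on 2 M WT arrays, and its difference over both sexes was 0.28 (SE 0.25, adjusted p = 0.468 by limma). miR-30c-2* differed by -0.28 (SE 0.21, adjusted p = 0.389) and miR-30b* by -0.31 (SE 0.35, adjusted p = 0.588). The fitted difference thus had the sign of the guide strand for miR-30a* and the opposite sign for miR-30c-2* and miR-30b*, with none of these past the test. miR-384-5p, the other RNA with this seed, was detected on no array.

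Across the 24 arrays the tested members varied together to a different degree. Of 6 correlations, that of miR-30b and miR-30c was the highest, with Pearson r = 0.64 (permutation p = 0.00078, adjusted p = 0.0047) and Spearman rho = 0.70 (permutation p = 3.0e-04, adjusted p = 0.0018), and r was 0.61 when the 2 arrays with the most extreme miR-30b values were dropped. miR-30b was detected on only 7 of the 24 arrays. The highest values of both members came from M c-Raf replicate 6, the dimmest array, which detected neither. After the mean of each slide was removed, r was 0.30. Within the scan days that held 8 arrays it was 0.18 and -0.10, but on the latter day 7 of the 8 miR-30b values were at the floor, and the 2 other days held 4 arrays each and were not used. miR-30a and miR-30d, in contrast, gave r = 0.054 (permutation p = 0.801, adjusted p = 0.801) and rho = 0.38 (permutation p = 0.0653, adjusted p = 0.0784), and r was 0.47 when the 2 most extreme arrays were dropped and 0.44 and 0.47 within those days, but -0.30 after the mean of each slide was removed. miR-30a and miR-30c gave r = 0.46 (permutation, adjusted p = 0.0713) and rho = 0.53 (adjusted p = 0.0248). Their r after slide means were removed, 0.57, was the highest of the 6. miR-30c and miR-30d gave r = 0.42 (permutation, adjusted p = 0.0864) and rho = 0.48 (adjusted p = 0.0349), but r = -0.46 after removal. The remaining pairs passed by neither measure. The permutations moved arrays across slides and groups, so these p values do not set a shared slide apart.

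The miRNAs outside the family whose log2 scaled intensity ran most like the mean of the 4 tested members over the 24 arrays were miR-223 (r = 0.67), miR-345-5p (r = 0.57) and miR-150 (r = 0.57). All points share their slide and their brightness with the members, and miR-223 and miR-150 were detected on 12 and 7 arrays.

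The miRNAs known for the epithelial state, 13 of which are on the array and 8 of which were tested, include the miR-200 family, which restrains the Zeb factors, and the miR-34 and miR-449 family of the airway. Over both sexes 3 of the 8 were called, beside a background of 18.3% of all tested miRNAs. These are the same miR-200a, miR-200b and miR-429 as above, since this list contains the markers of airway and alveolar epithelium. All 3 were higher in c-Raf. The median difference of the 8 was 0.26 beside 0.36 for the tested miR-30 members and 0.089 for all tested miRNAs. In males and in females none of the 8 was called by limma, with 1 and 2 under an unadjusted p of 0.05 and with median differences of 0.24 and 0.40 beside 0.50 and 0.21 for the miR-30 members and 0.129 and 0.0275 for all.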

How the data were processed

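Cy3-labelled RNA of 24 lungs had been hybridised to 1-colour Agilent mouse miRNA arrays, 1 array per animal. The authors deposited scanner files with the intensity of each spot, background-subtracted by the extraction software (Agilent Feature Extraction 10.7.3.1 per the file headers, 8.1.3 per the labels) and not scaled between arrays, together with a flag column, a value of another kind, that marks the miRNAs detected on an array. A further deposited table holds processed intensity: at least 99.6% of its values per array lay within 1% of the median over a miRNA's spots times 1000 over the 75th percentile of all spots. Its scale is thus linear and not centred, column medians ran from 299.1 to 2273, and it was used as an alternative.

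Groups were taken from the labels. Each spot was divided by the array's brightness, values under 0.01 were set to 0.01, the median over the spots was taken and then log2. limma (3.58.1, under R 4.3.3, with lmFit, eBayes, 1 mean per group over 24 arrays, two-sided moderated test) was run on the 120 mouse miRNAs detected on at least 6 arrays, with Benjamini-Hochberg adjustment and a threshold of 0.05. It was tested on simulated data. Pairs of members were compared by exact permutation over the 924 divisions of 12 arrays. No spot was saturated, and the number of arrays limits the precision.

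The members, the marker lists and the epithelial list were chosen with earlier results of these data known. Named miRNAs were the members, their star strands, miRNAs with the same seed, the 3 outside miRNAs most like the mean of the members, and called list miRNAs. Alternatives were other scalings, spot summaries, floors, filters, background correction, blocks, weights and the methods' t-test on linear values, which was not used for the main result. For normexp the median spot signal took the place of the planned mean signal. Whether replicate numbers pair the arrays was checked by the correlation of deviations from the group means. Over 36 pairs on the same slide it ran from -0.42 to 0.72 with a median of 0.36, and 23 were above 0.1. In 14 of the 36 pairs the array of the same slide was the closest match within its group. Arrays of a slide thus tended to deviate alike, and the main fit has no slide term. The slide was used as a block among the alternatives, and the numbers were not taken as a pairing beyond the shared slide.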

Additional observations from a re-analysis of the deposited data

Results flagged for a closer look

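Of the 20 combinations of a member and a group, only those of miR-30a, miR-30c and miR-30d had all values above the floor. In 2 of these, 1 array lay apart from the 5 others by more than Dixon's limit for 6 values, which chance alone gives in about 5% of groups. miR-30a was at -3.34 on M WT replicate 4, against -2.29 to -1.87 on the other M WT arrays. miR-30d was at -2.42 on F c-Raf replicate 3, against -1.39 to -0.95 on the others. The same limit was passed for miR-30e at -6.46 on M WT replicate 5, where all others were at the floor, and at -6.28 on M c-Raf replicate 6, against values up to -6.54. In these groups most values were at the floor, so that almost any value above it stands apart and the chance rate does not apply; neither array detected miR-30e.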

How the results depend on the processing

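Over both sexes 1 member, miR-30a, was called in the report. The number of members called there was 0 with percentiles over all non-control spots or over all spots, without scaling, with the median of the miRNAs detected on all arrays, with the total signal of the files, a floor of 0.001 or a floor at each array's lowest signal that was well above background, with quantile normalization, with normexp, without the filter, and in 2 settings chosen after seeing the data, the mean of the probes' medians and the 4 dimmest arrays (1 of each group) left out. It was 2 with the scan day as a block, and with the deposited table it was also 1, which was miR-30b (3.76), where miR-30b was called in males too (1 member, 6.85). That table leaves 12 cells of the members empty, and empty or low cells were set to 10 in its units, so that both differences depend on this fill and are no measured folds. With array weights miR-30a was called in females (1 member, difference 0.57). The causes were not tested. The adjusted p of miR-30a over both sexes ran from 0.0147 with array weights to 0.998 with normexp. Leaving out 1 array at a time gave 0 to 1 members called over both sexes, 0 to 0 in the 5 other comparisons and 0 to 1 pairs of members. The methods' t-test left 0 members under an unadjusted 0.05. Of all tested miRNAs it left 5 in males, 2 in females, 1 between the WT groups and 1 between the c-Raf groups.

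With the slide as replicate block the number of members called was 1 over both sexes and 0 elsewhere. That member was miR-30a (adjusted p = 0.0168 by limma). Over both sexes 28 tested miRNAs were then called, beside 22 without the block, and miR-30c had an adjusted p of 0.0545 by limma. A sign-flip test over slides called 0 pairs, and the replicate block changed no member's call. The median difference of all tested miRNAs over both sexes moved from 0.089 to 0.61 and 0.59 with the percentiles over all spots, to 0.50 without scaling and to -0.44 with the floor at each array's lowest such signal.

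Signs of values that were not called turned as follows, on the log2 scale. With normexp, miR-30a was -0.12 in males and 0.19 for M WT against F WT. miR-30b was -0.83 in males, 0.68 in females, -0.078 over both sexes, -1.51 for males minus females in the c-Raf effect, 0.50 for M WT against F WT and -1.01 for M c-Raf against F c-Raf. miR-30c was -0.55 in males, -1.16 for the sex difference of the effect and 0.33 for M WT against F WT, and miR-30d was -0.26 for M c-Raf against F c-Raf. With the floor at each array's lowest such signal, miR-30b was -0.98 in males, -0.52 over both sexes, -0.92 for the sex difference of the effect, 0.75 between the WT groups and -0.17 between the c-Raf groups, and miR-30c was -0.20, -0.088, -0.23 and 0.21 in the first 4 of these. With percentiles over all non-control spots, over all spots, and in the deposited table, the sex difference of the miR-30a effect was 0.52, 0.61 and 0.61, miR-30b in females 0.44, 0.38 and 0.68, miR-30d in males 0.47, 0.50 and 0.50, over both sexes 0.35, 0.34 and 0.34, for the sex difference of the effect 0.24, 0.33 and 0.33, and between the WT groups -0.13, -0.14 and -0.14. Without scaling, miR-30a was 1.34 for the sex difference of the effect and 0.47 between the c-Raf groups, where miR-30c was 0.51, and miR-30d was 0.95 in males, -0.11 in females, 0.42 over both sexes, 1.06 for the sex difference of the effect and -0.36 between the WT groups. The median of all tested miRNAs without scaling was 1.19 in males, -0.21 in females and 1.38 for the sex difference of the effect. Between the WT groups it was -0.67 and between the c-Raf groups 0.68. With the percentile over all spots that median was 1.03 in males, 0.13 in females, 0.90 for the sex difference of the effect and -0.75 between the WT groups. With array weights, miR-30a between the WT groups was 0.091, miR-30b in females 0.023, miR-30d over both sexes 0.038 and between the c-Raf groups -0.17. With the methods' t-test on linear means, the c-Raf groups differed by 0.37 in miR-30a and 0.092 in miR-30c, miR-30d by 0.91 in males and -0.29 between the WT groups. With the total signal, miR-30a was 0.20 for the sex difference of the effect and 0.019 between the c-Raf groups, and miR-30d was -0.066 in females. With quantile normalization, the sex difference of the miR-30a effect was 0.092 and miR-30b between the WT groups 0.11. miR-30b in females was 0.21 with a floor of 0.001 and 0.012 with the mean of the probes' medians, miR-30c between the c-Raf groups was 0.096 without outlier spots, and without the 4 dimmest arrays miR-30a between the WT groups was 0.086 and miR-30d between the c-Raf groups -0.065.

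Leaving out 1 array at a time, values whose sign turned ran from -0.28 to 0.045 for miR-30a between the WT groups and from -0.27 to 0.047 for its sex difference of the effect, from -0.16 to 0.060 for miR-30b in females and from -0.23 to 0.086 between the WT groups, from -0.013 to 0.57 for miR-30c in females and from -0.47 to 0.16 between the c-Raf groups, and for miR-30d from -0.022 to 0.32 in females, from -0.20 to 0.15 between the c-Raf groups and from -0.13 to 0.050 over both sexes. miR-30a over both sexes stayed between 0.39 and 0.56. Signal over background limits the faint members: miR-30b was detected on 7 arrays, miR-30e on 3 and miR-30c on 20.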
